A study of Mus musculus with 22 samples.

Results

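Fibroblasts of expanded mouse skin were compared between day 4 and day 2 after surgery, in 6 of the study's 22 libraries (3 libraries of day 4 and 3 of day 2). The 6 are the libraries whose labels put them in the expander arm (EXP) on those days, and all genes with enough counts were tested. Every mouse was operated on through a cut in the back skin, and EXP mice had an expander hydrogel, a gel that swells and stretches the overlying skin, placed beneath it near the neck. The surgery-only mice (CTRL) received no gel, and their 3 libraries of day 2 and 4 of day 4 are given beside the EXP values. Skin was taken apart into single cells and sorted. Live cells negative for the markers of vessel, blood, melanocyte and epithelial cells and positive for CD34 and PDGFRα were kept, so each library is a bulk sample of sorted cells. Strain, sex and age are not given in the sources used here. Nor is it stated that the numbered libraries of a group come from separate animals, so p-values measure only the spread between these libraries, which may be technical.

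Levels are given as CPM, a gene's counts relative to its library's total, with totals scaled by TMM, a normalisation that takes most genes as equal between libraries. The 3 day 2 EXP libraries held 22933195 to 23975713 counts and the 3 of day 4 held 28208828 to 30210204, so every day 4 library was deeper than every day 2 library. Genes of the sorted markers were high in all 6, with Pdgfra at 295 to 1022 CPM and Cd34 at 216 to 1552 CPM. Neither passed the test between the days (log2 fold change -0.60, adjusted p 0.504, and 1.24, adjusted p 0.268, edgeR), although Pdgfra fell by 1.20 (adjusted p 0.0412) when day 4 EXP replicate 1 was left out. The genes of the markers sorted against were low. The highest library had 3.68 CPM of Pecam1 (CD31), 0.243 CPM of Ptprc (CD45), 0.393 CPM of Kit (CD117) and 1.39 CPM of Epcam. The day 4 libraries were less alike (correlations of log2 CPM 0.915 to 0.949) than those of day 2 (0.956 to 0.968). Day 4 EXP replicate 3 stood apart. It correlated with the day 2 libraries at 0.945 to 0.964, against 0.916 to 0.934 for replicate 1 and 0.926 to 0.940 for replicate 2. The labels record no processing batch, so day and any batch that follows it cannot be told apart within EXP.

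Dermal fibroblasts make and remodel the collagen, elastic and hyaluronan-rich matrix of the skin. After an injury or under stretch they are known to pass from an early phase of cytokine release to one of matrix production, with fibronectin and type V collagen among the first parts of a new matrix and lysyl hydroxylases and lysyl oxidases setting its cross-links. TGF-beta and Wnt ligands are among the signals that act on these cells.

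Between day 2 and day 4 in EXP, 59 genes rose and 9 fell. The risers included the matrix genes Mfap5, Fn1, Col5a1, Col5a3, Plod2, Loxl2 and Has2, the secreted protein gene Lgi3, the imprinted genes H19 and Plagl1, and a set of actin-binding proteins. The fallers included the growth factor Tgfb3, the R-spondin receptor Lgr5 and the cytochrome Cyp4b1. The risers had a median log2 fold change of 2.24 (range 1.18 to 10.76). The upper end is that of H19, which had 0 counts in every day 2 library, so its fitted size is uncertain. The fallers had a median of -1.67 (range -2.56 to -1.07), while the median of all 17554 genes tested was 0.02.

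These 68 genes are 0.387% of those tested (0.336% higher on day 4, 0.0513% lower) at an adjusted p under 0.05 in edgeR's quasi-likelihood test with Benjamini-Hochberg adjustment. An unadjusted p under 0.05 was reached by 1823 genes. In all 68 the 3 day 4 libraries did not overlap the 3 of day 2, which held for 7.99% (higher) and 5.55% (lower) of all genes tested. With library totals in place of TMM, 67 genes passed and the split moved from 59 higher and 9 lower to 47 higher and 20 lower. The spread was estimated over all 22 libraries with 16 residual degrees of freedom. A fit of the 6 EXP libraries alone called 0 genes, with 1421 at an unadjusted p under 0.05, and a fit of the 11 EXP libraries of days 1, 2 and 4 called 0, with 1416.

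**Figure D1:**
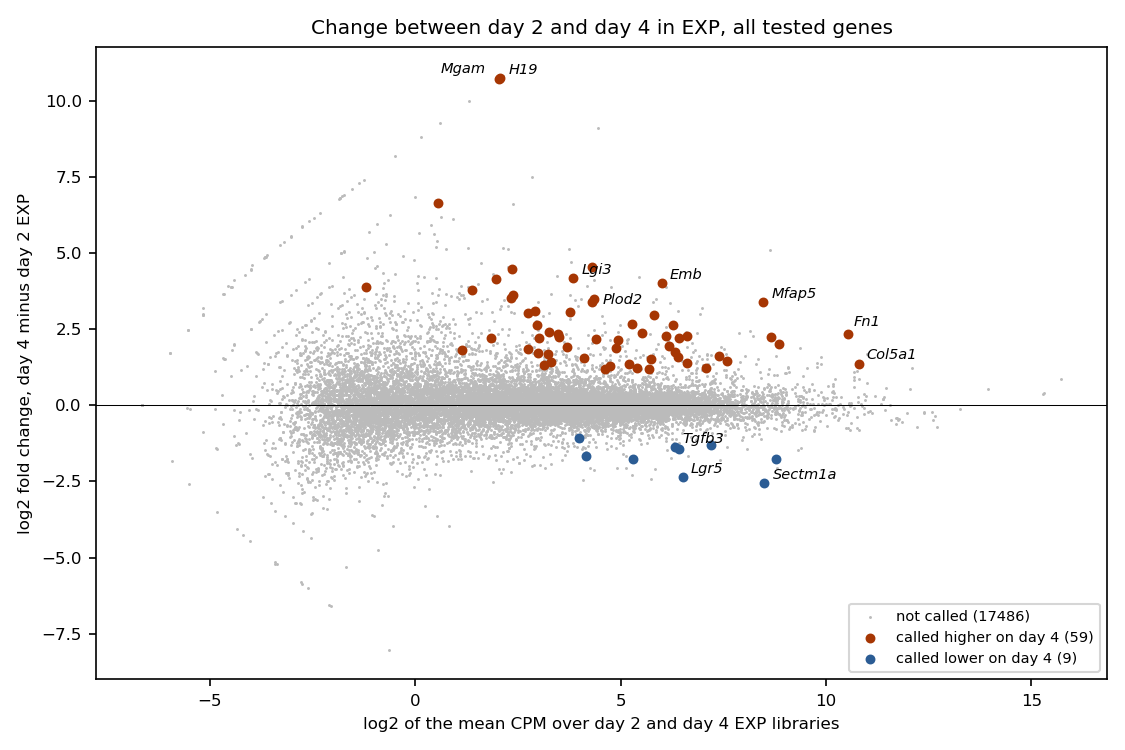
Log2 fold change between day 2 and day 4 in EXP (vertical axis, day 4 minus day 2) against the log2 of the mean CPM over the 6 libraries (horizontal axis) for 17554 genes, each a point. The 59 genes called higher and the 9 called lower are in colour. Mfap5, Fn1 and Col5a1 lie at high levels, H19 and Mgam at the top left had no counts on day 2.

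The number of calls depended on single libraries. Without day 4 EXP replicate 3 it was 500 (235 higher and 265 lower, among them all 68), and without replicate 1 of that day 73. It fell to 2 without day 4 EXP replicate 2, 2 without day 2 EXP replicate 1, 6 without replicate 2 and 12 without replicate 3 of that day. Lgi3 and Mfap5 were the 2 genes called in all 6 of these fits, and Tgfb3 and Lsp1 the 2 called in 4 of them. All 68 genes had the same sign of change in every fit run, which was likely in advance since the days did not overlap in them. Of the 59 risers, replicate 3 was the lowest day 4 library in 41 and replicate 1 in 18, and replicate 2 was the highest in 48. In 9 of 9 fallers replicate 3 was the highest day 4 library.

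**Figure D2:**
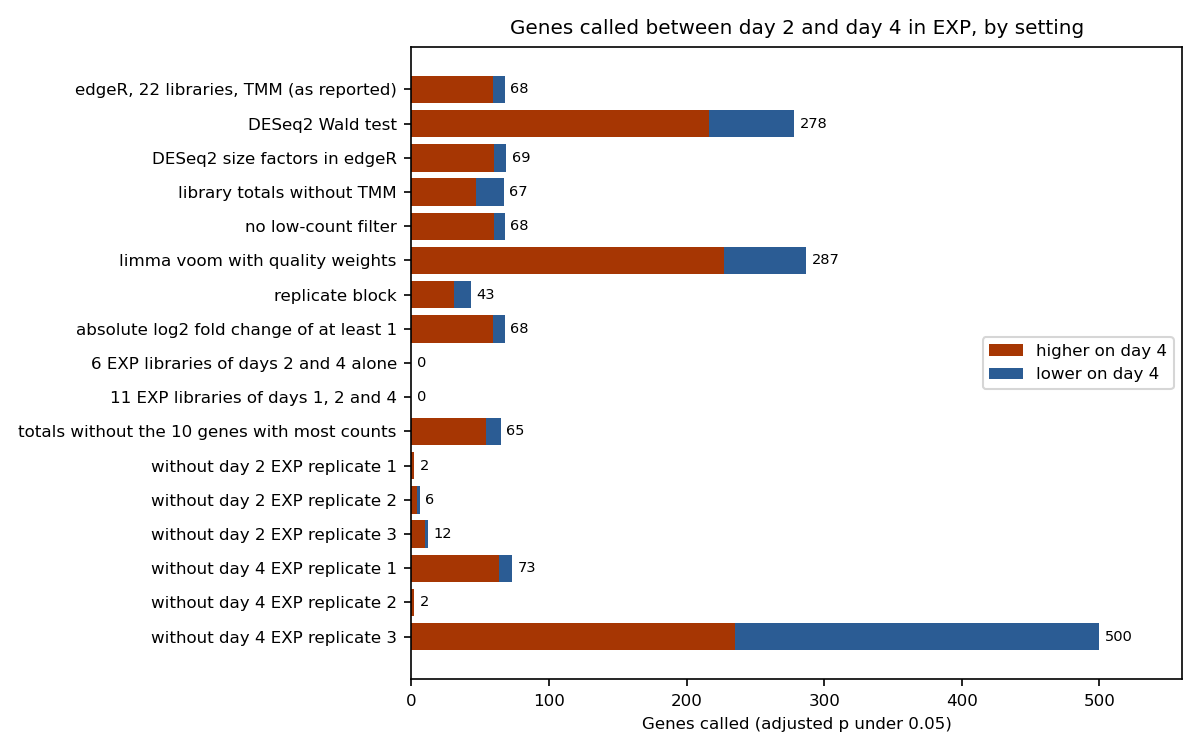
Genes called between day 2 and day 4 in EXP (horizontal axis, adjusted p under 0.05) for the fit as reported and for each alternative (vertical axis); bar colours separate genes higher from genes lower on day 4. The count runs from 0 in the fits of EXP libraries alone to 500 without day 4 EXP replicate 3.

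Mfap5 (ENSMUSG00000030116), a glycoprotein of the microfibrils on which elastic fibres form, was at 50.3, 52.5 and 83.1 CPM in the day 2 replicates 1, 2 and 3 and at 646, 1087 and 211 CPM in those of day 4. Replicate 3 was the lowest library of day 4, and it still lay above every day 2 library. The log2 fold change was 3.39 (SE 0.44, adjusted p 0.00167) and ran from 2.77 to 3.81 when single libraries were left out. The other named elastic fibre genes did not pass. Elastin (Eln) had a log2 fold change of 0.18 (adjusted p 0.962) and fibrillin-1 (Fbn1), the main microfibril protein, one of 0.70 (adjusted p 0.456). In the list of 17 elastic fibre genes, 1 was called higher and 0 lower, and the median was 0.18 and -0.03 with library totals in place of TMM. It was 0.40 without day 2 EXP replicate 2 and 0.10 without day 4 EXP replicate 2. Without day 4 EXP replicate 3, 2 were called higher and 1 lower (235 and 265 of all 17554 genes tested).

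Fn1 (ENSMUSG00000026193), fibronectin, was at 186, 523 and 760.1 CPM on day 2 and 2535, 3612 and 1269 CPM on day 4. Day 2 replicate 1 was the lowest of the 6 and day 4 replicate 2 the highest. Its log2 fold change was 2.34 (SE 0.42, adjusted p 0.0248; 1.94 to 2.80 with single libraries left out). Of 18 matricellular and adhesive glycoproteins, Fn1 was the 1 called. The median was 0.22 (0.40 without day 4 EXP replicate 1 and 0.08 without replicate 2). Without day 4 EXP replicate 3, 5 were called higher, as were 235 of all 17554 genes tested. With any other single EXP library of these days left out, 0 or 1 were called. Tenascin-C (Tnc), a glycoprotein of healing wounds, was at 10634, 2285 and 8929 CPM on day 2 and 11028, 393 and 4237 CPM on day 4, and the days overlapped. Postn, periostin, overlapped as well, with a log2 fold change of 0.15 (adjusted p 0.960).

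Of the 3 type V collagen genes, Col5a1 and Col5a3 rose and Col5a2 did not pass. Type V collagen is built into the core of type I fibrils and limits their diameter. The promoters of Col5a1 and Col5a3 are shown because both encode chains of 1 collagen and were called higher. That of Cyp4b1 is shown as a gene that fell. All are RefSeq promoters (GRCm38.p6), from 250 bases before to 50 after the start, matched by symbol and not in the build of the counts. They lie at chr2:27886175-27886474 on the plus strand, chr9:20815018-20815317 on the minus strand and chr4:115647672-115647971 on the minus strand. Capitals mark matches to any of 5 motifs searched on both strands, which are the NF-kB motif (GGG and TTCC with 3 bases of any kind between), the cell cycle homology region (CHR) TTTGAA, the CCAAT box CCAAT, the sterol regulatory element TCACNCCAC and the CArG core (CC, 2 bases, AT, 2 bases, GG) that serum response factor binds.
Col5a1: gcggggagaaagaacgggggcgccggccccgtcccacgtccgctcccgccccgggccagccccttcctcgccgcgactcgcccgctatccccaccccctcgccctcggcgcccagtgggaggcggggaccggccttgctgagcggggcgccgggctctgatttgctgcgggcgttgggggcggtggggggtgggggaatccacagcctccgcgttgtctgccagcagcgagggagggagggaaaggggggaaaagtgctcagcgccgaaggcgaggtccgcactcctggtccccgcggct
Col5a3: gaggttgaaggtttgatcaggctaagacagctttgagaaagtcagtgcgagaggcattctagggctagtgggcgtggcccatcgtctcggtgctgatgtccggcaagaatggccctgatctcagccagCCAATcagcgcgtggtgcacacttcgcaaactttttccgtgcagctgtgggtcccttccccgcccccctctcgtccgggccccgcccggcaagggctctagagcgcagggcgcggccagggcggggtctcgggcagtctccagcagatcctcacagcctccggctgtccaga
Cyp4b1: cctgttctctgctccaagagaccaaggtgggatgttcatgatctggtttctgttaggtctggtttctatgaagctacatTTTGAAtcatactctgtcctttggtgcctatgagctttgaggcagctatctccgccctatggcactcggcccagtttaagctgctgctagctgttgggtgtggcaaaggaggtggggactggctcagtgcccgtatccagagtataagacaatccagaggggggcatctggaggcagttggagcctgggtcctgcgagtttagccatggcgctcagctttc
The Col5a1 window held none of them, that of Col5a3 held a CCAAT box and that of Cyp4b1 a CHR. Promoters were matched for 44 of the 68 genes, 41 risers and 3 fallers. A CCAAT box was in the promoter of 19 of the 41 risers and 2 of the 3 fallers (41.1% of all 27025 genes with a promoter, 37.4% of all 32851 promoters), a CHR in 7 and 3 (20.2% and 17.9%), the CArG core in 5 and 0 (5.15% and 4.51%), the NF-kB motif in 1 and 0 (6.31% and 5.56%) and the sterol regulatory element in 0 and 0 (1.44% and 1.24%). A gene with several promoters counts once, by any of them, so the share of genes is the one to set beside these counts. CCAAT may lie within longer motifs.

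Col5a1 (ENSMUSG00000026837) was at 541, 1299 and 1123 CPM on day 2 and 2523, 3047 and 2113 CPM on day 4. Replicate 1 was low on day 2, and the lowest day 4 value was that of replicate 3. The log2 fold change was 1.37 (SE 0.26, adjusted p 0.0254; 1.09 to 1.62 with single libraries left out). Col5a3 (ENSMUSG00000004098) went from 136, 101 and 188 CPM to 683, 1042 and 282 CPM, again with replicate 3 the lowest on day 4 and no overlap. Its log2 fold change was 2.24 (SE 0.44, adjusted p 0.0310; 1.75 to 2.61). Col5a2, the third chain gene, was at 1485, 1843 and 1716 CPM and 2022, 2091 and 2486 CPM, without overlap, and did not pass (0.39, adjusted p 0.425).

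All 10 fibrillar collagen genes tested had a change above 0, from 0.26 to 2.24, but the 2 above were the ones called, and the median was 0.84. Leaving out day 4 EXP replicate 3, the median was 0.92 and 2 were called, as were 235 higher of all 17554 genes tested. Without replicate 1 of that day 2 were called as well. The number was 1 without day 2 EXP replicate 2. It was 0 without day 4 EXP replicate 2 and without day 2 EXP replicate 1 or 3. The lowest median was 0.65, without day 2 EXP replicate 1. Col1a1, the main chain of dermal collagen, was at 16746, 52167 and 36226 CPM on day 2 and 17403, 38251 and 82708 CPM on day 4. Here replicate 3 was the highest library of day 4, and the days overlapped (log2 fold change 0.40, adjusted p 0.833). Col3a1 had a log2 fold change of 0.88 (adjusted p 0.375) and overlapped too. Col1a1, Col1a2 and Col3a1 together took 12.2 ± 4.73% of counts on day 2 (SD, n = 3) and 16.4 ± 7.27% on day 4 (SD, n = 3), a difference of 4.17 percentage points that did not exceed the spread (two-sided exact permutation p = 0.50, smallest possible 0.10). Without single libraries it ran from 0.270 (without day 4 EXP replicate 3) to 7.47 points. In CTRL the same share was 28.6 ± 1.92% (SD, n = 3) and 26.0 ± 3.59% (SD, n = 4).

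Of 23 genes that process and cross-link collagen, Plod2 and Loxl2 were called higher and 0 lower, with a median of 0.50. With day 4 EXP replicate 3 left out, 4 were called higher, as were 235 of all 17554 genes tested. The number was 1 without replicate 1 of that day. It was 0 without replicate 2 of that day and without any single day 2 EXP library. Plod2 (ENSMUSG00000032374), the lysyl hydroxylase of collagen telopeptides, was at 2.57, 3.97 and 3.83 CPM on day 2 and 60.3, 41.9 and 6.64 CPM on day 4. Replicate 3 lay far below the other day 4 libraries and close to day 2. It rose by 3.39 on the log2 scale (SE 0.61, adjusted p 0.0248; 2.85 to 3.89 with single libraries left out). Loxl2 (ENSMUSG00000034205), a lysyl oxidase that starts collagen cross-links, was at 84.3, 104 and 117 CPM and then 271, 324 and 250.2 CPM, and its day 4 libraries lay close together (log2 fold change 1.46, SE 0.30, adjusted p 0.0332). Lox, the founding enzyme of that family, had all day 4 libraries above day 2 but did not pass (0.46, adjusted p 0.658), nor did P4ha1, a prolyl hydroxylase subunit (0.59, adjusted p 0.173).

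Other matrix-related genes were among the calls. Has2 (ENSMUSG00000022367), the hyaluronan synthase, was at 25.4, 38.8 and 36.6 CPM on day 2 and 237, 179.9 and 71.2 CPM on day 4, with replicate 3 lowest and no overlap (log2 fold change 2.27, SE 0.49, adjusted p 0.0459). Plat, tissue plasminogen activator, went from 181, 138 and 239 CPM to 770.2, 1164 and 304 CPM (2.00, adjusted p 0.0339). Fap, a cell-surface serine protease of activated fibroblasts, went from 3.50, 7.90 and 11.4 CPM to 26.4, 56.1 and 20.8 CPM (2.18, adjusted p 0.0330). In both, day 4 replicate 3 was nearest to the day 2 values. Islr, a surface protein with leucine-rich repeats, rose by 2.97 (adjusted p 0.0224) and Itih5, of the inter-alpha-trypsin inhibitor heavy chain family, by 2.39 (adjusted p 0.0397). Itih5 depended on day 4 EXP replicate 2, without which its log2 fold change was 1.56.

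**Figure D3:**
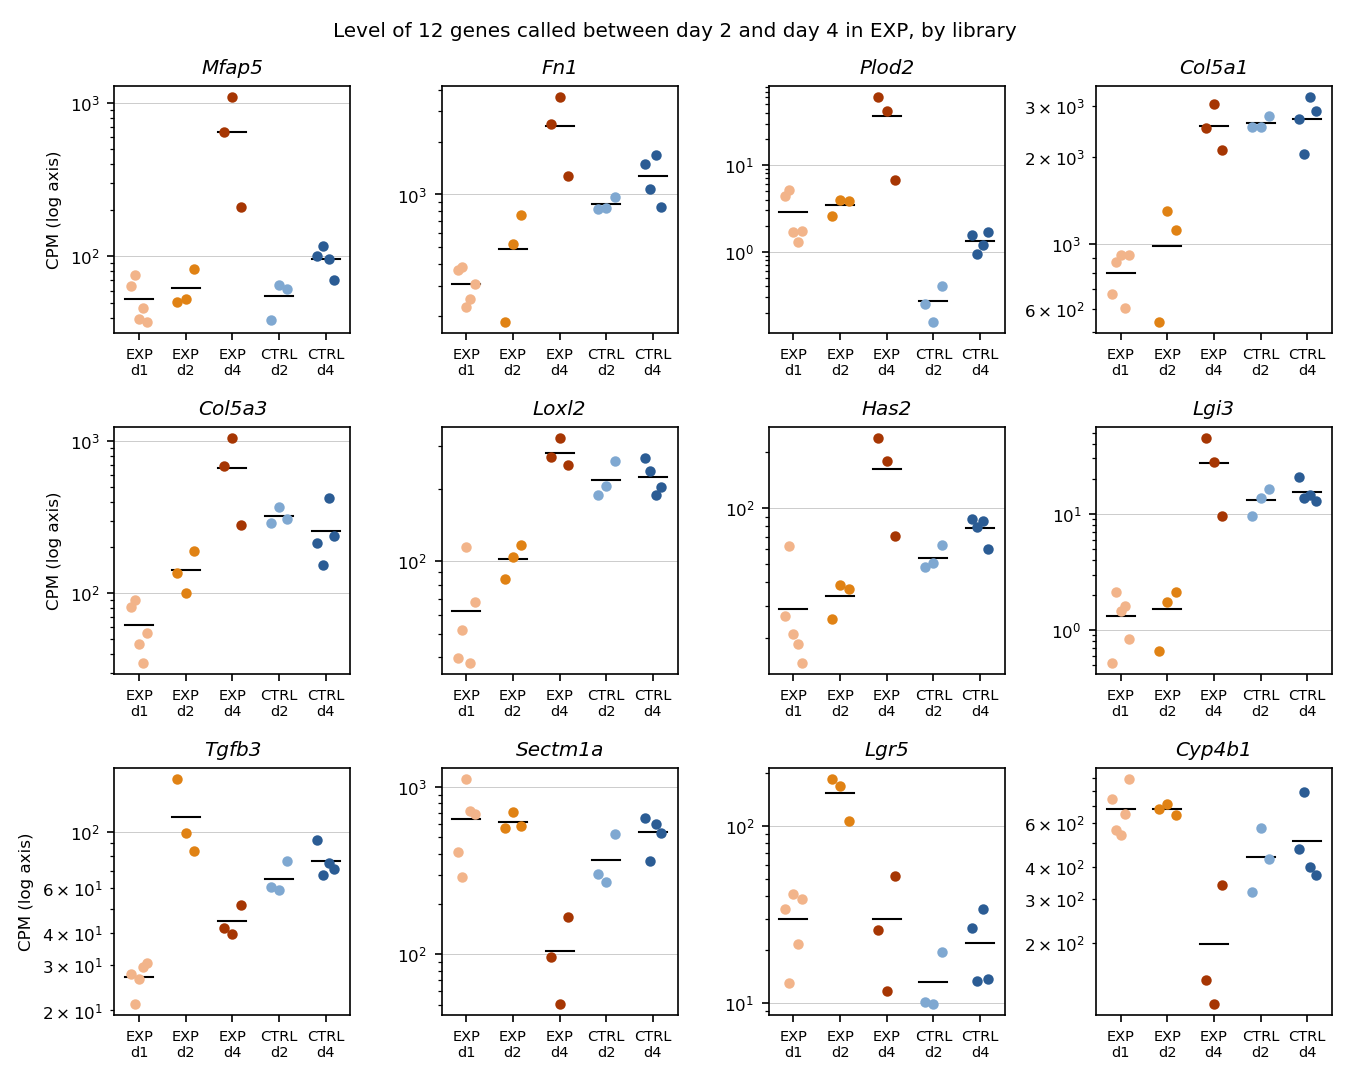
CPM (vertical axes, log scale, a range of its own in each panel) of 12 called genes in EXP on days 1, 2 and 4 and in CTRL on days 2 and 4 (horizontal axis); points are libraries and bars group means. In the first 8 panels the 3 day 4 EXP libraries lie above day 2 EXP and in the last 4 below, with replicate 3, the right-hand point, nearest to day 2 in most panels.

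Several lists of matrix genes held no called gene in edgeR. Of 15 collagen VI, FACIT and other collagens 0 passed (3 at an unadjusted p under 0.05; 1 with DESeq2 and 1 with voom), with a median of 0.31 (0.15 without day 2 EXP replicate 1, and 0.13 with 1 called higher without day 4 EXP replicate 3). Of 11 small leucine-rich proteoglycans 0 passed (0 unadjusted, 0 with DESeq2 and with voom), with a median of 0.15, -0.01 with library totals, -0.22 without day 2 EXP replicate 1 and -0.49, with 1 called lower, without day 4 EXP replicate 3. Decorin (Dcn), which coats collagen fibrils, was at 8770.5, 12391 and 9831 CPM and 6536, 9570.4 and 12326 CPM, overlapping. Of 15 metalloproteinases and their TIMP inhibitors 0 passed (4 unadjusted; 1 lower with DESeq2 and with voom), with a median of -0.33, and of -0.73 without day 4 EXP replicate 3. Mmp3, stromelysin-1, was at 8786, 7466 and 8746 CPM and 3449, 4439.8 and 7269 CPM, all day 4 libraries lower, but did not pass (adjusted p 0.457). Of 13 myofibroblast contractile genes 0 passed (2 unadjusted; 0 with DESeq2 and with voom), with a median of 0.08 that ran from -0.11 to 0.24 with single libraries left out (lowest without day 4 EXP replicate 1, highest without replicate 3). Acta2, smooth muscle actin, had a log2 fold change of 0.03 (adjusted p 0.995).

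Tgfb3 (ENSMUSG00000021253), a TGF-beta ligand, had the smallest p of the genes that fell. It was at 160.2, 99.1 and 83.9 CPM on day 2 and 42.1, 39.9 and 51.7 CPM on day 4. The day 4 libraries lay close together, and day 2 replicate 1 was the highest. The log2 fold change was -1.36 (SE 0.21, adjusted p 0.00927; -1.54 to -1.04 with single libraries left out). On day 1 the EXP mean was 27.1 CPM, below both later days. Of 28 TGF-beta and BMP pathway genes Tgfb3 was the 1 called, and the median was -0.56. In 8 of the 28 all day 4 libraries lay below day 2, and in 0 above (5.55% and 7.99% of all genes tested). Without day 4 EXP replicate 3 the median was -0.92 and 8 were called lower, as were 265 of all 17554 genes tested. Tgfb1, another ligand, had a log2 fold change of -1.21 (adjusted p 0.272) and Tgfbr1, the type I receptor, one of -0.69 (adjusted p 0.316). Neither passed.

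Lgr5 (ENSMUSG00000020140), a receptor for R-spondins that raises Wnt signalling, was at 183, 168 and 106 CPM on day 2 and 26.0, 11.7 and 52.0 CPM on day 4. Its highest day 4 library, replicate 3, was below every day 2 library. Its log2 fold change was -2.35 (SE 0.50, adjusted p 0.0439; -3.02 to -1.99 with single libraries left out). The day 1 EXP mean was 29.7 CPM and the CTRL means were 13.2 and 21.9 CPM on days 2 and 4, so day 2 EXP was the group with the highest mean of these 5. Of 24 Wnt pathway genes Lgr5 was the 1 called, and the median was -0.32. It was -0.13 without replicate 2 of either day. Without day 4 EXP replicate 3 it was -1.05, with 2 called higher and 5 lower (235 and 265 of all 17554 genes tested). With any other single EXP library of these days left out, 0 were called. Axin2, a target and inhibitor of the canonical pathway, had a log2 fold change of -1.62 (adjusted p 0.270) and did not pass. Lrp4, a receptor-related protein that binds Wnt inhibitors, also fell, from 18.9, 29.1 and 33.0 CPM to 3.70, 6.11 and 15.7 CPM (-1.67, SE 0.36, adjusted p 0.0459).

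Sectm1a (ENSMUSG00000025165), which encodes a small transmembrane protein, had the largest fall. It was at 572, 705 and 581 CPM on day 2 and 96.0, 50.6 and 168 CPM on day 4, with no overlap (log2 fold change -2.56, SE 0.43, adjusted p 0.0164). Cyp4b1 (ENSMUSG00000028713), a fatty acid and xenobiotic hydroxylase, went from 681, 708 and 644 CPM to 143, 115 and 339.5 CPM (-1.76, SE 0.34, adjusted p 0.0284). In both genes day 4 replicate 3 stood above the other libraries of its day. The pseudogene Cyp4b1-ps1 changed by -1.77 (adjusted p 0.0459), and reads may have been divided between it and Cyp4b1, so the separate values are uncertain. Tnfrsf26, a TNF receptor family member, fell by 1.44 (adjusted p 0.0284), Pde4b, a cyclic AMP phosphodiesterase, by 1.30 (adjusted p 0.0470), and Dnm3, a dynamin of membrane scission, by 1.07 (adjusted p 0.0164), all on the log2 scale.

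Lgi3 (ENSMUSG00000033595), a secreted protein with leucine-rich repeats, was at 0.660, 1.73 and 2.12 CPM on day 2 and 44.7, 27.7 and 9.49 CPM on day 4, and replicate 1 was the highest library. The log2 fold change was 4.18 (SE 0.53, adjusted p 0.00167; 3.66 to 4.59 with single libraries left out). Bmp3, a ligand of the BMP family, went from 0.330, 1.30 and 0.720 CPM to 7.32, 18.5 and 3.07 CPM (3.62, SE 0.73, adjusted p 0.0312). Placental growth factor (Pgf), a ligand of the VEGF receptor FLT1, went from 1.68, 1.85 and 2.84 CPM to 11.1, 22.9 and 6.25 CPM (2.66, SE 0.53, adjusted p 0.0312). It was the 1 gene called of 9 VEGF and angiopoietin ligands, where Vegfa changed by -0.33 (adjusted p 0.913) and did not pass. The list's median was 0.43, 0.20 without day 2 EXP replicate 1 and, without day 4 EXP replicate 3, -0.04. Sema3c, a secreted guidance protein, rose by 2.29 (adjusted p 0.0284), and in Lgi3, Bmp3, Pgf and Sema3c all day 4 libraries lay above those of day 2.

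Among genes of surface proteins, Cd55, which speeds the decay of complement convertases, was at 12.4, 40.4 and 35.6 CPM on day 2 and 77.7, 183 and 84.3 CPM on day 4 (log2 fold change 1.96, SE 0.38, adjusted p 0.0284). Its paralog Cd55b rose by 1.80 (adjusted p 0.0459), and the counts of both are uncertain where they share reads. Emb, embigin, a partner of monocarboxylate transporters, was at 5.51, 9.36 and 7.58 CPM on day 2 and 319, 28.9 and 12.7 CPM on day 4. One library set the size of its change, since the log2 fold change of 4.01 (SE 0.77, adjusted p 0.0284) was 1.5003 without day 4 EXP replicate 1. Tmem100, a small membrane protein, went from 1.98, 4.56 and 3.53 CPM to 21.5, 69.2 and 22.2 CPM (3.49, adjusted p 0.0439), with replicate 2 the highest. The adhesion molecule Sdk1 rose by 3.09 (adjusted p 0.0439), the membrane proteins Heg1 by 2.20 (adjusted p 0.0284), Plxdc2 by 1.54 (adjusted p 0.0330) and Smim1 by 1.69 (adjusted p 0.0284), and the phospholipid scramblase Plscr4 by 2.33 (adjusted p 0.0251). Slc16a9, of the monocarboxylate transporter family, rose by 3.79 (adjusted p 0.0330), Slc12a8, of the cation-chloride cotransporter family, by 4.14 (adjusted p 0.0439), and Tmc6, a transmembrane channel-like protein, by 1.93 (adjusted p 0.0439). The change of Heg1 was 1.18 without day 4 EXP replicate 2. Drd4, a dopamine receptor, had no more than 2 counts in any day 2 library and was at 0.965, 0.937 and 0.500 CPM on day 4 (adjusted p 0.0284).

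Actin-binding and related proteins among the risers were encoded by Fhl1, Dbn1, Cotl1 and Lsp1. Fhl1, a LIM domain protein of muscle, was at 13.1, 22.7 and 28.4 CPM on day 2 and 72.9, 192 and 133 CPM on day 4, and replicate 1 was the lowest of day 4 here (log2 fold change 2.63, SE 0.43, adjusted p 0.0160). Drebrin (Dbn1) rose by 2.66 (adjusted p 0.0284) and the coactosin-like protein Cotl1 by 2.24 (adjusted p 0.0459). Lsp1, an F-actin binding protein best known from leukocytes, was at 27.7, 55.0 and 43.3 CPM and 97.0, 191 and 92.6 CPM (1.60, adjusted p 0.0123). Signalling genes in the same set were Vav2, an exchange factor for small GTPases (1.71, adjusted p 0.0284), Arfip2, which binds the GTPases Arf and Rac (1.18, adjusted p 0.0254), Dmpk, a protein kinase (1.56, adjusted p 0.0439), and Lurap1l (1.86, adjusted p 0.0254). Mustn1, a small nuclear protein of muscle and skeleton, rose by 2.42 (adjusted p 0.0251). Without day 4 EXP replicate 2 the log2 fold change of Cotl1 was 1.43 and that of Mustn1 1.59. These genes are grouped by known role for reading, after the calls were seen, and no count over the groups was tested.

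H19, the imprinted long noncoding RNA, had 0 counts in all 3 day 2 libraries and 15.5, 8.99 and 0.535 CPM on day 4. Its day 4 mean was at least 75.6-fold higher, against a floor of 3 counts per library (adjusted p 0.0224, edgeR). Mgam, an intestinal maltase-glucoamylase, likewise had 0 counts on day 2 and 9.01, 15.0 and 0.428 CPM on day 4. Its day 4 mean was at least 74.0-fold higher (adjusted p 0.0178, edgeR). In both, replicate 3 had the lowest day 4 level, far nearer the floor of 0.110 CPM than the day 4 mean was. Each was called in 2 of the 6 fits with a single library left out. Mgarp, a mitochondrial protein, had no more than 1 count in any day 2 library and 3.03, 4.96 and 0.750 CPM on day 4 (adjusted p 0.0254). Plagl1, an imprinted zinc finger transcription factor, rose by 1.37 (adjusted p 0.0284). Zfp423, a transcription factor of preadipocytes, went from 1.55, 4.05 and 3.07 CPM to 11.05, 16.7 and 12.2 CPM (2.21, SE 0.44, adjusted p 0.0284), and Ncoa7, a nuclear receptor coactivator, rose by 1.34 (adjusted p 0.0381). Zfp423 was the 1 called of 9 adipogenic regulators, whose median was 0.54, 0.82 without day 4 EXP replicate 2 and -0.10, with 2 called higher, without replicate 3.

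Enzymes of sugar metabolism among the risers were Pgm1, a phosphoglucomutase (1.18, adjusted p 0.0330), Ugp2, which makes UDP-glucose (1.21, adjusted p 0.0330), the lysosomal beta-galactosidase Glb1 (1.24, adjusted p 0.0439) and Cmah, which hydroxylates CMP-sialic acid (4.55, adjusted p 0.0356). Cmah was at 1.02, 1.38 and 2.43 CPM on day 2 and 12.2, 80.8 and 19.8 CPM on day 4, and replicate 2 lay far above the rest. Ugp2 changed by 0.72 without day 4 EXP replicate 2. Naaa, an acid amidase of lysosomes, rose by 1.28 (adjusted p 0.0439), the sulfite oxidase Suox by 1.41 (adjusted p 0.0439) and Efhd1, a mitochondrial calcium sensor, by 4.50 (adjusted p 0.0284). The list of 22 glycolysis and hypoxia genes had 0 calls in edgeR (8 unadjusted; 1 with DESeq2 and with voom) and a median of 0.41. Without day 4 EXP replicate 3 it was 0.60 and 4 were called higher, as were 235 of all 17554 genes tested. With any other single EXP library of these days left out, 0 were called. Ldha, lactate dehydrogenase A, was at 997, 927 and 939.6 CPM and 1197, 1301 and 891 CPM and overlapped. Another 4 risers, Gm21451, Gm15675, AW551984 and 1700019D03Rik, have no established name and are only counted.

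**Figure D4:**
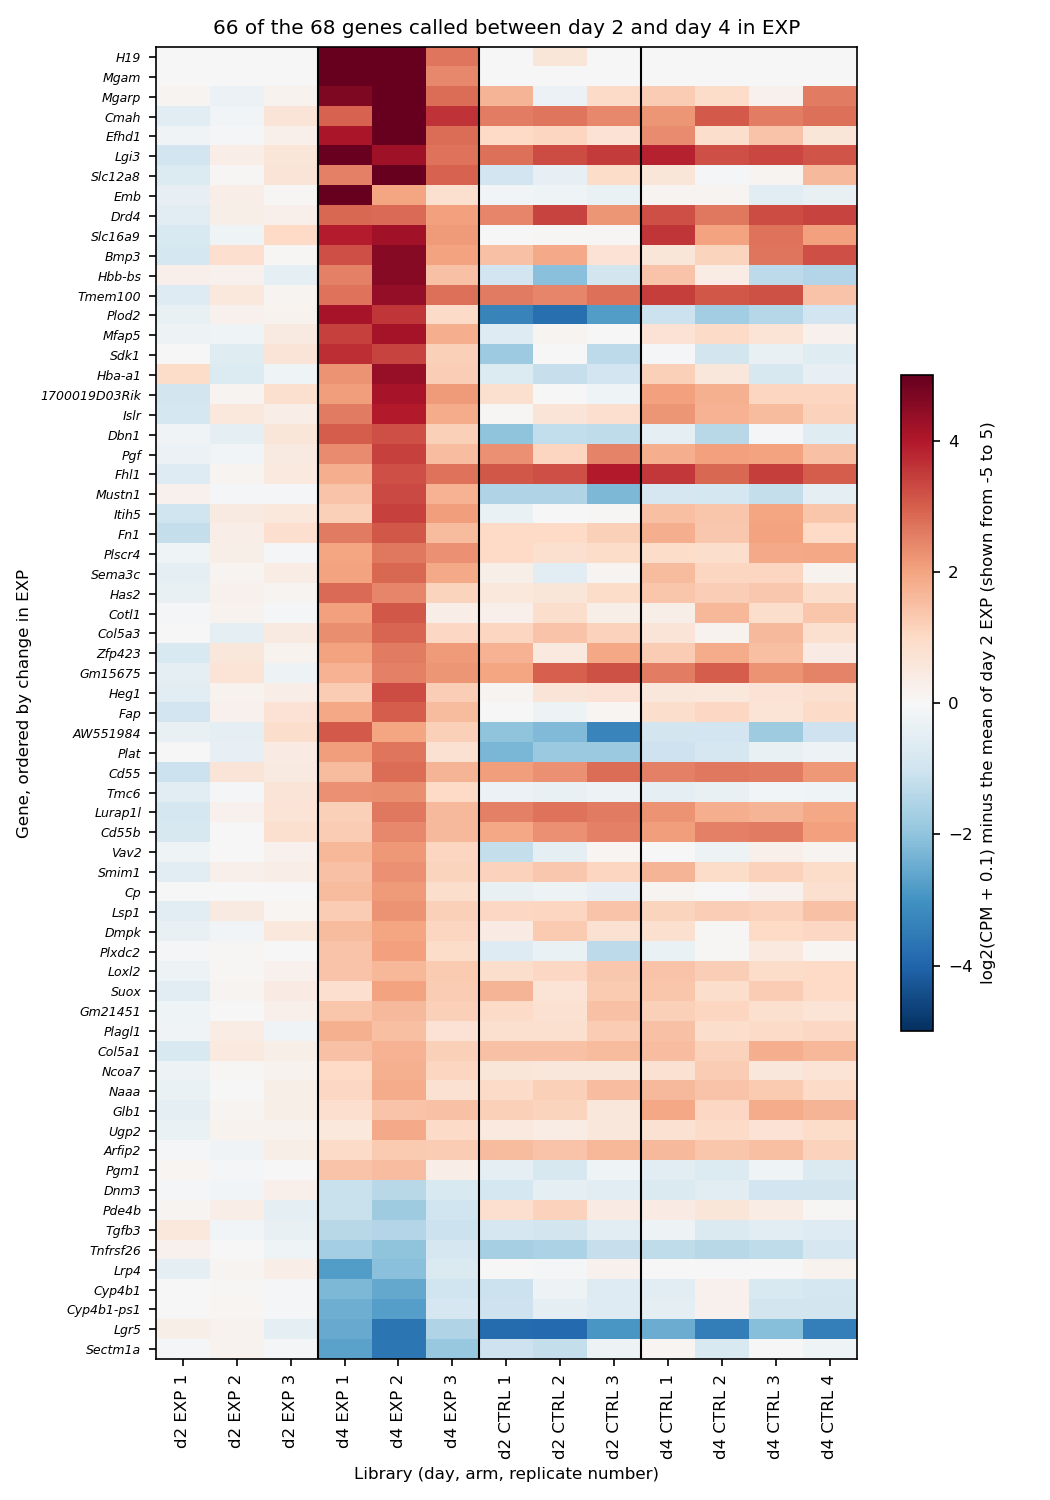
A total of 66 of the 68 called genes (vertical axis, ordered by change) in the EXP and CTRL libraries of days 2 and 4 (horizontal axis), coloured by log2(CPM + 0.1) minus the mean of the day 2 EXP libraries, shown up to 5 in either direction. Day 4 EXP replicate 2 has the darkest red for most risers and replicate 3 the palest, while in the CTRL columns the risers had a median change of 0.42.

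Genes of inflammation gave few calls. Ceruloplasmin (Cp), a copper-carrying acute-phase protein, was at 84.9, 83.3 and 81.6 CPM on day 2 and 251, 365 and 152 CPM on day 4. The day 2 libraries were close together and all day 4 libraries lay above them (log2 fold change 1.62, SE 0.31, adjusted p 0.0278). It was the 1 called of 15 acute-phase and antimicrobial genes, whose median was 0.41. That median was 0.17 without day 2 EXP replicate 2, 0.18 without day 4 EXP replicate 2, 0.87 without day 2 EXP replicate 1 and 0.91 without day 4 EXP replicate 3. Saa3, serum amyloid A3, was at 1565, 215 and 1758 CPM and 1980.5, 3604 and 712 CPM and overlapped (adjusted p 0.855). Of 14 complement genes Cd55 was the 1 called, with a median of 0.86 that was 0.36 without day 4 EXP replicate 2, and 1 more was called lower without replicate 3. C3, the central component, overlapped between the days (1.58, adjusted p 0.392).

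Of 8 neutrophil-recruiting factors 0 passed in edgeR (3 unadjusted; 1 with DESeq2 and with voom), although the median was 1.13 in EXP and 1.20 in CTRL. The EXP median was 0.73 without day 4 EXP replicate 1 or 2. Leaving out day 4 EXP replicate 3, 2 were called higher, as were 235 of all 17554 genes tested. Cxcl1, a neutrophil chemokine, was at 2526, 2716 and 2661 CPM on day 2 and 6799.9, 9364 and 2213 CPM on day 4. Replicate 3 lay below day 2 while the other day 4 libraries lay above it (log2 fold change 1.22, adjusted p 0.270). Of 16 other chemokines and macrophage growth factors 0 passed (8 unadjusted; 2 higher with DESeq2 and with voom), with a median of 1.08. The median was 0.31 without day 4 EXP replicate 2. Without replicate 3 of that day, 2 were called higher and 1 lower (235 and 265 of all 17554 genes tested). Csf1, the macrophage growth factor, was at 459, 655 and 539.6 CPM and 282, 307 and 382 CPM, all day 4 libraries lower, and did not pass (adjusted p 0.170). Of 22 interferon-stimulated genes and 15 NF-kB genes 0 passed (0 at an unadjusted p under 0.05 in each, and 0 with DESeq2 and with voom), and 1 NF-kB gene was called lower without day 4 EXP replicate 3.

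Of 24 mitosis and spindle genes 0 passed in edgeR (3 unadjusted; 0 with DESeq2 and with voom). All were above 0 on day 4 by the fit, from 0.12 to 1.67, with a median of 1.12, and that median rested on 1 library: without day 4 EXP replicate 1 it was -0.05. Cdk1, the mitotic kinase, was at 11.4, 15.7 and 15.3 CPM on day 2 and 46.6, 16.8 and 9.96 CPM on day 4, with replicate 1 the highest and replicate 3 the lowest of all 6. Of 24 replication genes 0 passed (2 unadjusted; 0 with DESeq2 and with voom), with a median of -0.29. Here the median was -1.03, with 3 called lower, without day 4 EXP replicate 1, and -0.02, -0.04 and 0.05 without day 2 EXP replicate 1, day 4 EXP replicate 2 and day 4 EXP replicate 3. Pcna, the sliding clamp of replication, was lower in all day 4 libraries without passing (-0.43, adjusted p 0.439). Of 23 cholesterol genes 0 passed (4 unadjusted; 0 with DESeq2 and with voom). Their median was -0.40 in EXP and 0.71 in CTRL. In EXP it was -0.07 without day 2 EXP replicate 1, -0.26 and -0.17 without day 4 EXP replicates 1 and 3, and -0.67 without replicate 2. The 12 lists not described above (G1 cyclins, fatty acid synthesis, YAP and TAZ targets, growth factors for epidermis, fibroblast subset markers, immediate early genes, the unfolded protein response, amino acid stress, the respiratory chain, ribosome biogenesis, the glucocorticoid response and Hox genes) had 0 calls each in edgeR, with medians from -0.44 to 0.54, and from -0.65 to 0.61 with single libraries left out. Each had 0 to 8 members at an unadjusted p under 0.05, and at most 1 call in either direction with DESeq2 or with voom. Leaving out day 4 EXP replicate 3, 3 amino acid stress genes and 2 glucocorticoid response genes were called lower, 1 YAP and TAZ target was called higher and 2 lower, and 1 was called in each direction among growth factors and among subset markers. Without replicate 1, 1 subset marker was called lower. For every list, counts without day 4 EXP replicate 3 belong beside the 235 higher and 265 lower of all 17554 genes in that fit. The lists were written by hand with earlier results of these data known, so their counts and medians describe these libraries and are no independent support.

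**Figure D5:**
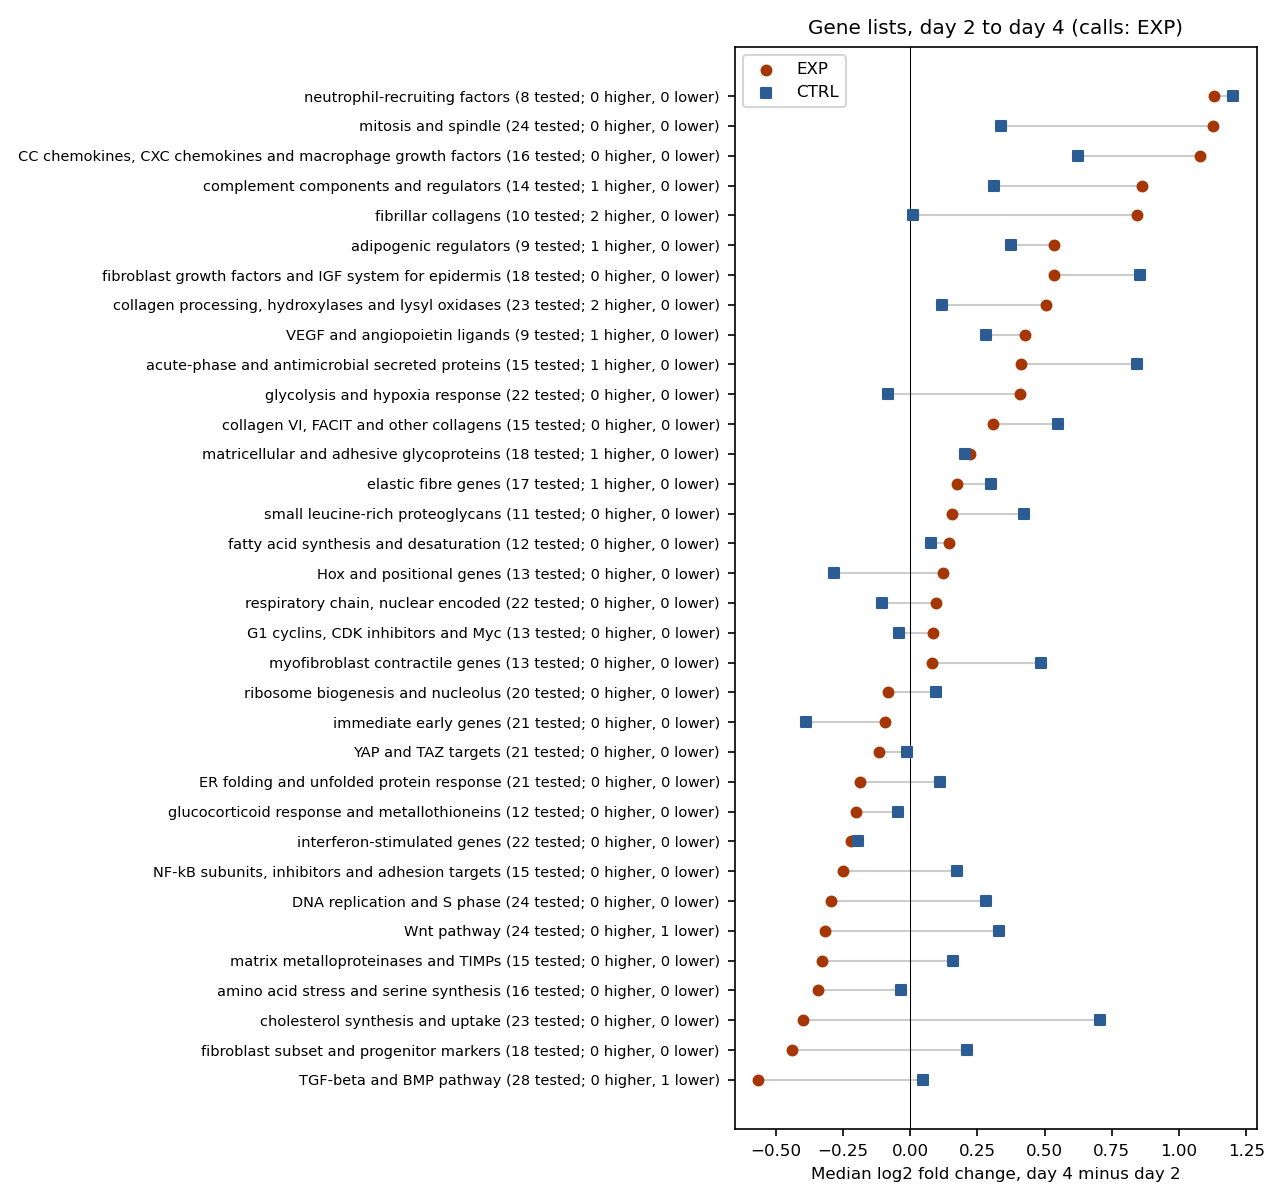
Median log2 fold change between day 2 and day 4 (horizontal axis) of the tested members of 34 gene lists (vertical axis), as circles for EXP and squares for CTRL, with members tested and called in EXP in brackets. EXP medians run from -0.56 for the TGF-beta and BMP pathway to 1.13 for neutrophil-recruiting factors, and no list had more than 2 called members.

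The surgery-only libraries of the same days give the background of these changes. In CTRL 1 gene was called between day 2 and day 4 (0.00570% of those tested, 1195 at an unadjusted p under 0.05). It was Calhm6, of the calcium homeostasis modulator family, with a log2 fold change of 4.44 (adjusted p 0.00709) in CTRL and -0.06 (adjusted p 0.985) in EXP. It was not called when any single day 2 CTRL library was left out. Of the 59 EXP risers 46 had a CTRL change above 0, with a median of 0.42 against 2.24 in EXP. Of the 9 fallers 7 had one above 0, with a median of 0.23 against -1.67. The CTRL median of all genes tested was 0.0187.

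The difference between the EXP and CTRL changes was tested directly, where a shift common to both arms of a day cancels. It passed for 0 genes in edgeR (1174 at an unadjusted p under 0.05, smallest adjusted p 0.0746), 35 with DESeq2 and 16 with voom. Without day 4 EXP replicate 3 it passed for 65 and without day 2 EXP replicate 3 for 1. Of the 68 genes called in EXP, all had a difference of the same sign as the EXP change and 56 had an unadjusted p under 0.05, in a set chosen on the EXP change itself. The smallest p-values were those of Lgi3 (difference 3.97, SE 0.66, adjusted p 0.0746), Calhm6 (-4.49, adjusted p 0.0746), Tgfb3 (-1.59, adjusted p 0.0746), Lurap1l (2.53, adjusted p 0.0883) and Sectm1a (-3.12, adjusted p 0.0883), and none passed. That the changes were particular to EXP was therefore not shown by this test.

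The genes differed in where the EXP levels stood beside CTRL, which was not tested here. Col5a1 had CTRL means of 2617 and 2713 CPM on days 2 and 4, against EXP means of 988 ± 397 CPM on day 2 and 2561 ± 468 CPM on day 4 (SD, n = 3 each). Lgi3 was at 13.3 and 15.4 CPM in CTRL, and Cd55 at 140.0 and 147 CPM. Their CTRL means lay above all 3 day 2 EXP libraries. Mfap5 was at 55.1 and 95.8 CPM in CTRL against 648 ± 438 CPM in day 4 EXP, Plod2 at 0.270 and 1.35 CPM against 36.3 ± 27.3 CPM, and Plat at 45.8 and 120.3 CPM against 746 ± 431 CPM (SD, n = 3 each). For these genes all 3 day 4 EXP libraries lay above both CTRL means. Over the 59 risers the day 2 CTRL mean exceeded the day 2 EXP mean in 36, and the day 4 CTRL mean exceeded the day 4 EXP mean in 9. The day 1 EXP mean was below the day 4 EXP mean in 59 of 59 risers and above it in 7 of 9 fallers. Tgfb3 and Lgr5 were the exceptions. The risers and fallers were chosen on the same day 2 and day 4 EXP values, which favours such counts. The shares over all tested genes were not counted, so these counts are descriptions only.

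Markers of other cells moved with day in some libraries, and in bulk RNA fewer cells of a type and less RNA per cell cannot be told apart. The 5 red blood cell genes summed to 4.72 to 9.24 CPM on day 2 and 13.9 to 122.6 CPM on day 4. Of the 4 tested, all lay above day 2 in every day 4 library, as did 7.99% of all genes tested. Hba-a1 (3.07, adjusted p 0.0373) and Hbb-bs (3.54, adjusted p 0.0459) were called in edgeR. Hba-a1, an alpha globin chain, was at 12.8, 54.6 and 6.14 CPM on day 4, highest in replicate 2, and may share reads with its near-copy Hba-a2, as Hbb-bs may with Hbb-bt. Leaving out replicate 2 of day 4, the log2 fold change was 1.68 for Hba-a1 and 2.18 for Hbb-bs. Replicate 2 was also the highest day 4 library of 48 of the 59 risers. The part of red blood cell RNA in those values was not tested.

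The 11 mature adipocyte genes summed to 20.96 to 213.7 CPM on day 2 and 331.4 to 929.3 CPM on day 4, with 0 called of the 9 tested (5 at an unadjusted p under 0.05). Replicate 3 had the highest sum. In day 4 replicate 1 it came mostly from Car4 (carbonic anhydrase 4) at 317 CPM, with Adipoq (adiponectin) at 0 there, while replicate 3 had 52.9 CPM of Adipoq and 220.1 CPM of Cfd (adipsin). The 8 neutrophil genes summed to 16.1 to 20.0 CPM on day 2 and 2.498 to 7.85 CPM on day 4, mostly from Mmp8, a neutrophil collagenase that was also a member of the metalloproteinase list, and Cxcr2 was at 0 in all 6. The part of these cells' RNA in the results was not tested.

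Vessel markers were low on both days, and none passed in edgeR. Pecam1 was at 0.330, 0.0786 and 0.227 CPM on day 2 and 1.23, 3.68 and 3.18 CPM on day 4, with no overlap. Its log2 fold change was 3.62, with an adjusted p of 0.182 in edgeR, 0.0252 in DESeq2 and 0.0332 in voom. The endothelial markers had a median log2 fold change of 3.62 (4 of 7 tested at an unadjusted p under 0.05, 0 called in edgeR) while their sums, 4.13 to 11.5 CPM on day 2 and 6.49 to 15.5 CPM on day 4, overlapped. Pericyte and smooth muscle markers had a median of 2.09 (4 of 7 unadjusted, 0 called in edgeR), with sums of 23.9 to 45.7 and 20.0 to 62.0 CPM. Against 7.99% of all genes tested, 3 of these markers lay higher on day 4 without overlap. Their part in the results was not tested.

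Sums of skeletal muscle markers (1.06 to 1.15 and 1.21 to 4.48 CPM) and of mast cell markers (0.0660 to 0.152 and 0.188 to 0.535 CPM) did not overlap between the days. The day 2 mast cell sums lay near 0.110 CPM, the level of 3 counts per library, so that difference is uncertain. The 3 muscle markers tested had a median log2 fold change of 2.39 (2 unadjusted, 0 called in edgeR) and no mast cell marker was tested. Keratinocyte (5.31 to 6.86 and 3.81 to 31.1 CPM, median 1.66), Schwann cell (5.01 to 12.7 and 8.82 to 16.1 CPM, median 1.17), macrophage (99.3 to 172.4 and 76.2 to 181.5 CPM, median -0.13), T cell (79.5 to 123.5 and 84.5 to 111.3 CPM, median -0.03) and melanocyte sums (38.3 to 53.3 and 17.5 to 41.9 CPM, median -0.17) overlapped, with 0 to 2 markers of each at an unadjusted p under 0.05 and 0 called in edgeR. The 7 T cell markers include Thy1, which is also in the list of fibroblast subset markers, and 3 had 0 counts in every day 2 EXP library. Markers at 0 in all 6 libraries were Cpa3 of mast cells, Tyrp1 of melanocytes, Sox10 of Schwann cells, and Myh4 and Tnnc2 of skeletal muscle. The 8 fibroblast markers summed to 68164 to 171171 CPM on day 2 and 83411 to 280318 CPM on day 4.

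For 27 of the 68 genes an exon overlaps that of another gene in GENCODE M21, Fn1, Col5a1, Plod2, Loxl2, Has2, Tgfb3, Cp, Cd55, Emb, H19 and Islr among them. Whether reads were counted by strand is not given in the sources used here, so reads of such overlapping partners cannot be told apart.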

How the data were processed

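RNA from sorted dermal fibroblasts was sequenced as paired-end reads from ultra-low-input libraries, per the labels' protocols. The authors deposited 1 table of raw counts per gene for 22 libraries. Trimmomatic and mm39 are named in the submitters' processing notes; the aligner, counter, annotation release and strandedness are not given in the sources used here. The table holds 55414 genes, 52081 of them with a symbol in GENCODE M21. From the deposited counts, genes were filtered (filterByExpr, minimum count 10) and scaled by TMM, and 6 group means were fitted over 22 libraries with edgeR 4.0.16 (R 4.3.3; robust quasi-likelihood F test, Benjamini-Hochberg adjustment, threshold 0.05). The 3 contrasts were day 4 minus day 2 in EXP, in CTRL, and their difference. Exact permutation was used for the collagen share.

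By the fixed rule, genes named were the 10 largest rises and falls of called genes whose libraries did not overlap and averaged 5 CPM or more, the 5 with the smallest interaction p, the first 2 members and up to 4 called members of each list, the sort markers and genes called in CTRL. Of the genes called or listed, a few are not reported here. The remaining called genes, the marker genes of other cell types and the grouping by role were chosen after their values were seen. Members and lists were chosen with earlier results of these data known. Alternatives were DESeq2 1.42.0, voom in limma 3.58.1, other scalings and filters, other sets of libraries, a replicate block and leaving out each library. List medians without single libraries were added after seeing the data.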

Additional observations from a re-analysis of the deposited data

Results flagged for a closer look

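Over 27 genes and 52 groups of 4 or more libraries, 5 groups had 1 library far from the others, a gap beyond Dixon's 95% critical value, which chance gives in about 1 in 20 groups. No day 2 or day 4 EXP group could be checked this way, since each has 3 libraries. Day 1 EXP replicate 2 stood apart in 4 genes. It had 7.27 CPM of Tmem100 against 1.05 to 1.501 in the others, 0.404 CPM of Calhm6 against 0.146 to 0.218, 465.0 CPM of Pdgfra against 642.9 to 701.6, and 777.9 CPM of Cd34 against 261.9 to 365.6. That library enters the day 1 means given above. Day 4 CTRL replicate 1 had 0.242 CPM of Kit, while the other libraries of its group had 0.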

How the results depend on the processing

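All 68 genes called in EXP kept their sign in every fit, and all 68 were called with DESeq2 and with voom. Their libraries did not overlap between the days, so leaving out a library could hardly reverse a sign. DESeq2 and voom used the same counts and called more genes, so neither gives independent support. The count of calls was 278 with DESeq2, 287 with voom, 0 with the 6 EXP libraries alone and 0 with the 11 EXP libraries, and 2 to 500 with single libraries left out. In CTRL it was 16 with DESeq2, 0 without the low-count filter, and 0 to 1 with single libraries left out. The difference between the arms gave 35 calls with DESeq2, 16 with voom and 0 to 65 with single libraries left out. The cause of these shifts was not tested. Same-numbered EXP libraries of days 2 and 4 correlated at 0.173, 0.0124 and -0.0694 in their deviations from the group mean. Differently numbered pairs ran from -0.226 to 0.229. With so few libraries this cannot tell whether same-numbered libraries share more than a number. With a replicate block 43 genes were called in EXP (36 of them among the 68), 0 in CTRL and 1 for the difference. Medians of the 34 lists moved by less than the spread between libraries under 2 other scalings. The difference in collagen share ran from 0.270 to 7.47 points with single libraries left out. Each of the 6 libraries held 22933195 or more counts, and whether depth or the number of libraries limited the calls was not tested.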
